A study of Mus musculus with 8 samples.

Results

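The genes described here are 10 genes of major histocompatibility complex (MHC) class II presentation and of the costimulation that goes with it: *H2-Aa*, *H2-Ab1*, *H2-Eb1*, *H2-DMa*, *H2-DMb1*, *Cd74*, *Ciita*, *Cd80*, *Cd86* and *Cd40*. They were found by symbol among the 55573 genes of the deposited count table, and all 10 were present. The libraries came from microglia sorted from mouse brain at postnatal day 60, with 1 library per mouse, from 4 *Smad2/3 fl/fl;Cx3cr1 Cre* mutants and 4 controls. In the mutants both *Smad2* and *Smad3*, which encode the receptor-activated SMAD transcription factors of the canonical TGFβ pathway, are floxed. Cre is expressed from the *Cx3cr1* locus, which is active in microglia and in related macrophages, so cells outside the microglia can recombine too. The labels call the controls wild-type, whereas the Methods state that no mouse of these crosses lacked all transgenes and floxed alleles, and that controls generally carried Cre with 1 floxed allele. The genetic background was C57BL6/J by backcrossing. The study asked how far canonical, SMAD-dependent signalling accounts for what TGFβ does in microglia. For antigen presentation genes, the comparison of mutants with controls gives only the difference in *Smad2/3* mutants. These libraries hold no mutant of an upstream gene of the pathway, so they cannot answer the question by themselves.

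Class II molecules are pairs of an alpha and a beta chain that carry peptides from endosomes to the cell surface, where CD4 T cells read them. The invariant chain, encoded by *Cd74*, escorts new class II molecules to the endosome and blocks their groove, and the DM heterodimer then removes its remnant and loads peptide, while the DO heterodimer restrains DM. CIITA, the class II transactivator, is the factor on which transcription of these genes depends, and CD80, CD86 and CD40 are the surface molecules through which a presenting cell costimulates, or is licensed by, a T cell. Microglia of the healthy adult brain are known for low class II expression, and macrophages at the brain borders for higher expression.

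Between 35639502 and 41946479 reads per library were counted on genes. Of the targeted genes, *Smad3* lay between 39.4 and 56.8 CPM (read counts scaled to library size) in controls, against 9.60 to 35.1 CPM in mutants, lower by 1.33 on the log2 scale (a log2 fold change of -1.33, edgeR adjusted p = 0.0429). *Smad2* lay between 62.7 and 92.3 CPM, against 42.6 to 75.8 CPM (log2 fold change -0.34, edgeR adjusted p = 0.340). A count over the whole gene does not single out the deleted exons. *Xist*, transcribed from the inactive X chromosome of females, lay between 99.3 and 183 CPM in controls, against 0.0276 to 0.561 CPM in mutants. *Ddx3y*, on the Y chromosome, lay between 0.0269 and 0.224 CPM in controls. It measured 9.73 CPM in mutant 2 and 41.7 to 59.7 CPM in the other mutants. Sex-linked expression thus divided the libraries in the same way as genotype, and the effects of sex and of genotype cannot be told apart. Of 8 microglial markers, 8 fell in the mutants, and their summed level was 30950 to 47280 CPM in controls and 5260 to 7610 CPM in mutants. The list holds *Cx3cr1*, at 5450 to 8618 CPM in controls and 1277 to 1347 CPM in mutants. Cre is expressed from its locus, and the part of that allele in its fall was not tested. The library numbered 1 of each group held the most RNA of neural and vascular cells, with a summed marker level of 4006 CPM in control 1 and 3355 CPM in mutant 1, against 535 to 1405 CPM in the other controls and 1025 to 1820 CPM in the other mutants.

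Antigen presentation genes were much higher in the mutants. Of the 10 genes, 9 rose and 0 fell by edgeR, DESeq2 and an unadjusted p under 0.05 alike, and *Cd86* was the 1 gene without a call. The chains and the invariant chain rose 9.64-fold to 11.1-fold, *H2-DMa* rose 5.34-fold and *Ciita* 4.13-fold, and *H2-DMb1* and *Cd80* rose least among the 9, by 2.51-fold and 2.16-fold. The test was edgeR's quasi-likelihood test on the counts of 20153 genes with p-values adjusted over all of them, and an adjusted p under 0.05 made a call. Over all genes tested, 4.36% were called higher and 7.97% lower. For 9 of the 10 genes the lowest mutant stood above the highest control, whereas groups did not overlap in either direction for 22.1% of all genes tested. The median log2 fold change was 2.84 over the 10 genes and 0.01 over all genes tested. In a bulk library a larger number of cells with class II RNA and more class II RNA in each cell cannot be told apart.

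**Figure D1:**
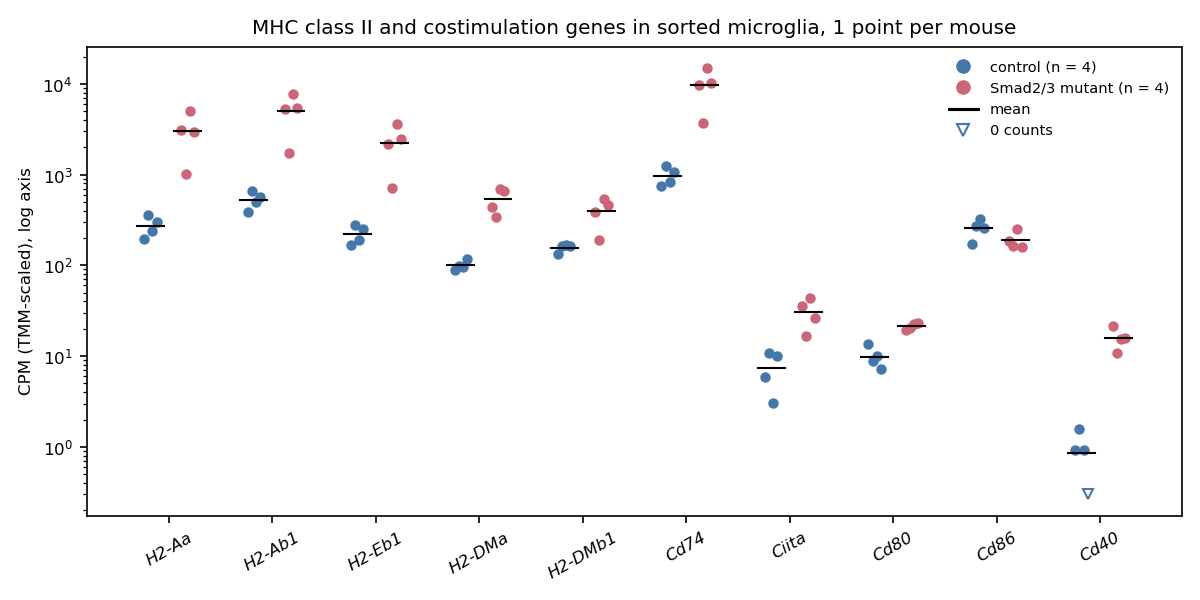
CPM of the 10 genes (log axis, scaled by TMM) in each of 4 control libraries (blue) and 4 mutant libraries (red), with the mean of each group as a bar and a library with 0 counts as an open triangle. The groups separate for every gene except *Cd86*, and *Cd74* reaches the highest level, 14830 CPM.

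The classical class II molecules of these mice are built from the alpha chain of *H2-Aa* (ENSMUSG00000036594, chr17:34282744-34287823, minus strand, GRCm38) and the beta chain of *H2-Ab1* (ENSMUSG00000073421, chr17:34257689-34269419, plus strand). CPM, which divides counts by library size, is given here after scaling by TMM, a factor that corrects for differences in library composition. *H2-Aa* measured 193, 359, 236 and 299 CPM in controls 1 to 4 and 3096, 1014, 4970 and 2957 CPM in mutants 1 to 4. Every mutant stood above every control, but mutant 2 stood well below the other mutants. *H2-Aa* rose 11.1-fold in the fit (log2 fold change 3.47, standard error (SE) 0.46, edgeR adjusted p = 0.00149).

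*H2-Ab1* measured 388, 660, 497 and 563 CPM in controls 1 to 4 and 5329, 1717, 7809 and 5463 CPM in mutants 1 to 4. The order of the 4 mutants was the same as for *H2-Aa* except that mutants 1 and 4 changed places, and the groups again did not overlap. *H2-Ab1* rose 9.64-fold (log2 fold change 3.27, SE 0.43, edgeR adjusted p = 0.00148). It was the 13th most counted gene by its mutant mean and the 205th by its control mean.

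*H2-Eb1* (ENSMUSG00000060586, chr17:34305867-34316674, plus strand) encodes the beta chain of the other classical class II molecule, I-E. Its CPM were 167, 280, 192 and 250 in controls 1 to 4 and 2184, 713, 3644 and 2438 in mutants 1 to 4. *H2-Eb1* rose 10.1-fold (log2 fold change 3.34, SE 0.45, edgeR adjusted p = 0.00177), with mutant 2 again lowest and mutant 3 highest. The alpha chain of I-E is known not to be transcribed in C57BL/6 mice, which carry a deletion in its promoter, and its gene, annotated as the pseudogene *H2-Ea-ps* (chr17:34341959-34344645), had 0 counts in all 8 libraries. No RNA of the partner chain was therefore counted beside that of *H2-Eb1*.

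The invariant chain gene *Cd74* (ENSMUSG00000024610, chr18:60803848-60812652) was the most abundant of the 10 genes. It measured 756, 1247, 834 and 1065 CPM in controls 1 to 4 and 9745, 3709, 14830 and 10330 CPM in mutants 1 to 4. The lowest mutant, mutant 2, was still above the highest control. *Cd74* rose 9.89-fold (log2 fold change 3.31, SE 0.40, edgeR adjusted p = 0.00104), and it moved from the 118th to the 7th most counted gene. Together the 10 genes took 0.188% to 0.311% of all counts in controls and 0.873% to 3.25% in mutants.

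The DM heterodimer, which edits the peptides bound by class II molecules, is encoded by *H2-DMa* and *H2-DMb1*. *H2-DMa* (ENSMUSG00000037649, chr17:34119541-34139101, plus strand) measured 88.4, 99.1, 94.9 and 118 CPM in controls 1 to 4 and 436, 343, 699 and 660 CPM in mutants 1 to 4. The controls lay close together and far below every mutant. *H2-DMa* rose 5.34-fold (log2 fold change 2.42, SE 0.25, edgeR adjusted p = 4.46e-04). Its exons overlap those of *Brd2* on the other strand by 360 bases, and in unstranded libraries reads from that stretch cannot be assigned to 1 of the genes.

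*H2-DMb1* (ENSMUSG00000079547, chr17:34153072-34160230, plus strand) measured 133, 163, 169 and 165 CPM in controls 1 to 4 and 383, 191, 534 and 466 CPM in mutants 1 to 4. Mutant 2 stood just above the controls, and the other mutants stood clearly higher. *H2-DMb1* rose 2.51-fold (log2 fold change 1.32, SE 0.29, edgeR adjusted p = 0.0178). The call was lost when control 2 was left out (log2 fold change 1.34, edgeR adjusted p = 0.0521). Of the 50-base words in its transcripts, 22.7% also occur in other genes, mainly in its neighbour *H2-DMb2*, so reads could be split between the pair.

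*Ciita* (ENSMUSG00000022504, chr16:10480059-10528418, plus strand), whose product is recruited to class II promoters and acts as a coactivator there, was expressed at a far lower level than the genes it acts on. It measured 5.84, 10.7, 3.02 and 10.1 CPM in controls 1 to 4 and 35.5, 16.7, 44.1 and 26.4 CPM in mutants 1 to 4. The groups did not overlap, control 3 was lowest and mutant 3 highest. *Ciita* rose 4.13-fold (log2 fold change 2.05, SE 0.44, edgeR adjusted p = 0.0175), and its call was lost without both libraries numbered 1 (log2 fold change 1.88, edgeR adjusted p = 0.0733). Its exons overlap those of *Dexi* on the other strand by 329 bases.

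The costimulation genes did not move together. *Cd80* (ENSMUSG00000075122, chr16:38455561-38496335, plus strand), a ligand of CD28 and CTLA4, measured 13.6, 8.74, 9.95 and 7.15 CPM in controls 1 to 4 and 19.5, 20.2, 22.6 and 23.1 CPM in mutants 1 to 4. The mutants were nearly level with each other and all above the controls, and *Cd80* rose 2.16-fold (log2 fold change 1.11, SE 0.23, edgeR adjusted p = 0.0144). *Cd86* (ENSMUSG00000022901, chr16:36603869-36666081, minus strand), which binds the same receptors, measured 170, 270, 328 and 256 CPM in controls 1 to 4 and 186, 165, 254 and 160 CPM in mutants 1 to 4. The groups overlapped, since control 1 lay within the range of the mutants, and the difference did not pass the test (log2 fold change -0.42, SE 0.23, edgeR adjusted p = 0.269).

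*Cd40* (ENSMUSG00000017652, chr2:165055627-165072948, plus strand), the receptor through which activated T cells stimulate presenting cells, was barely detected in controls. It measured 0.930, 1.56, 0.922 and 0 CPM in controls 1 to 4, from 36, 60, 33 and 0 counts, and 21.7, 10.8, 15.6 and 15.7 CPM in mutants 1 to 4, from 835, 498, 561 and 569 counts. Every mutant stood far above every control. *Cd40* rose 18.6-fold in the fit (log2 fold change 4.22, SE 0.89, edgeR adjusted p = 0.0152). The controls differed from each other, and without control 4, which had 0 counts, the log2 fold change was 3.84 (edgeR adjusted p = 0.00107).

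The 4 mutants differed from each other in a way that most of the genes shared. Mutant 2 was the lowest mutant for 8 of the 10 genes and mutant 3 the highest for 8 of the 10. Relative to the control mean, *H2-Aa* was 11.4-fold, 3.73-fold, 18.3-fold and 10.9-fold higher in mutants 1 to 4, and *Cd74* was 9.99-fold, 3.802-fold, 15.2-fold and 10.6-fold higher. The coefficient of variation over the 4 mutants was 53.7% for *H2-Aa*, 49.5% for *H2-Ab1*, 53.6% for *H2-Eb1* and 47.3% for *Cd74*, whereas the median over the 1441 genes with a mutant mean of at least 100 CPM was 18.7%. *Cd80* varied much less, with a coefficient of 8.22%. *Smad3* was also highest in mutant 3 among the mutants, at 35.1 CPM, and lowest in mutant 2, at 9.60 CPM, and the part of remaining *Smad3* in the spread of the class II genes was not tested.

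**Figure D2:**
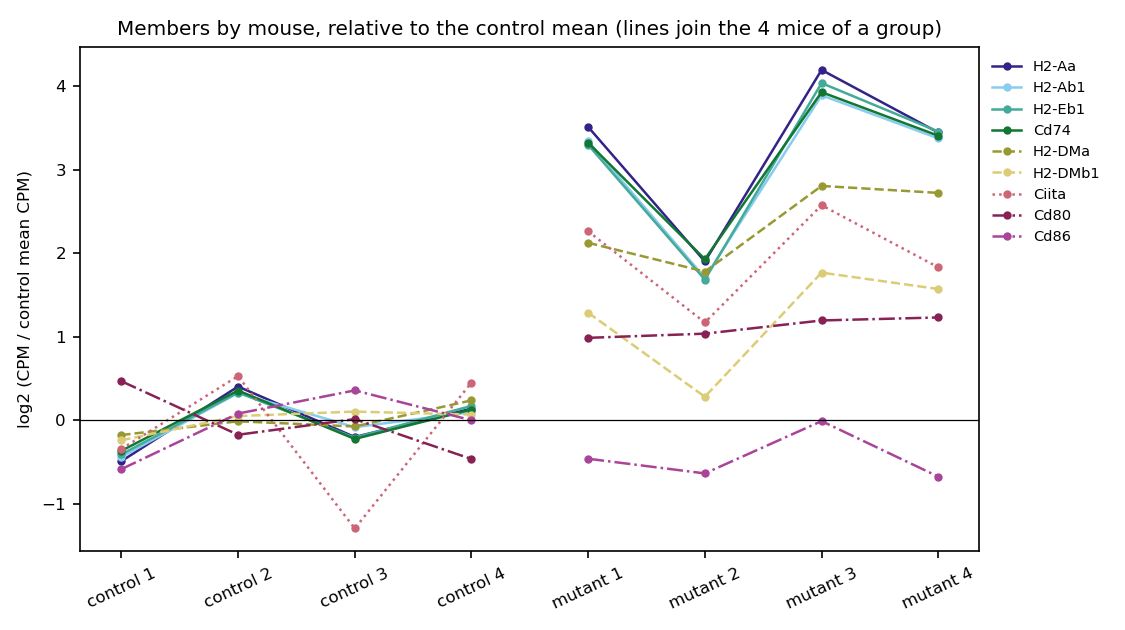
log2 of each gene's CPM over its control mean in the 8 libraries. *Cd40* is left out because 1 control has 0 counts, and lines only join the mice of a group, whose numbers have no order. The 3 chain genes and *Cd74* lie almost on each other, lowest in mutant 2 and highest in mutant 3, while *Cd80* is level across the mutants.

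The class II chains and the invariant chain kept nearly the same proportions to each other in every library. Levels of different genes are compared here per kilobase of annotated exon length (RPKM, CPM per kilobase). The level of *H2-Aa* per level of *H2-Ab1* was 0.321 to 0.368 in controls and 0.366 to 0.430 in mutants. That of *H2-Eb1* per *H2-Ab1* was 0.511 to 0.587 and 0.541 to 0.617, and that of *Cd74* per *H2-Ab1* was 2.57 to 2.98 and 2.80 to 3.30. The ranges of the 2 groups overlapped for all 3 ratios, for *H2-Aa* only because mutant 4, at 0.366, lay below control 2, at 0.368. The level of *H2-DMa* per *H2-Ab1* was 0.112 to 0.170 in controls and 0.0609 to 0.149 in mutants, where only mutant 2 lay among the controls. *H2-DMb1* behaved otherwise, with a level per *H2-Ab1* of 0.376 to 0.523 in controls and 0.105 to 0.170 in mutants, which did not overlap. The ratio of *Cd86* to *Cd80* was 12.6 to 36.2 in controls and 7.003 to 11.4 in mutants, also without overlap.

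Per length, *Cd74* stood first in both groups, at 581 ± 133 RPKM in controls and 5748 ± 2720 RPKM in mutants (mean ± SD, n = 4 each). In controls *H2-Ab1* followed at 205 ± 44.6 RPKM, then *H2-Eb1* at 114 ± 26.6, *H2-DMb1* at 93.5 ± 9.74, *H2-Aa* at 71.6 ± 19.1 and *Cd86* at 69.9 ± 17.8 RPKM. Within those controls *H2-Eb1* and *H2-DMb1* differed by less than their spread, as did *H2-Aa* and *Cd86*. *H2-DMa* was lower, at 29.0 ± 3.68 RPKM, and *Cd80*, *Ciita* and *Cd40* were at 2.67 ± 0.746, 0.778 ± 0.383 and 0.251 ± 0.189 RPKM. In mutants *H2-Ab1* measured 1978 ± 979, *H2-Eb1* 1155 ± 619 and *H2-Aa* 792 ± 426 RPKM, and these neighbours differed by less than their spread between mice. Within every single mutant, though, *H2-Ab1* stood above *H2-Eb1* and *H2-Eb1* above *H2-Aa*. Per level of *H2-Ab1*, *H2-Eb1* was at 0.541 to 0.617 and *H2-Aa* at 0.366 to 0.430. *H2-DMb1* at 234 ± 88.5 and *H2-DMa* at 155 ± 49.96 RPKM then stood above *Cd86* at 52.2 ± 11.8 RPKM, and *Cd80*, *Cd40* and *Ciita* came last at 5.77 ± 0.474, 4.68 ± 1.31 and 3.22 ± 1.24 RPKM.

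The other genes of the pathway did not follow. Of 37 further genes that load, process, regulate or accompany class II molecules, 34 passed the filter of at least 10 counts in at least 4 libraries, and 3 of these rose (1 of them, *H2-Eb2*, tested only through its mutant counts), 12 fell and 19 had no call, with a median log2 fold change of -0.42. *H2-Ea-ps* and *Tnfsf4*, the ligand of OX40, had 0 counts in all 8 libraries.

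**Figure D3:**
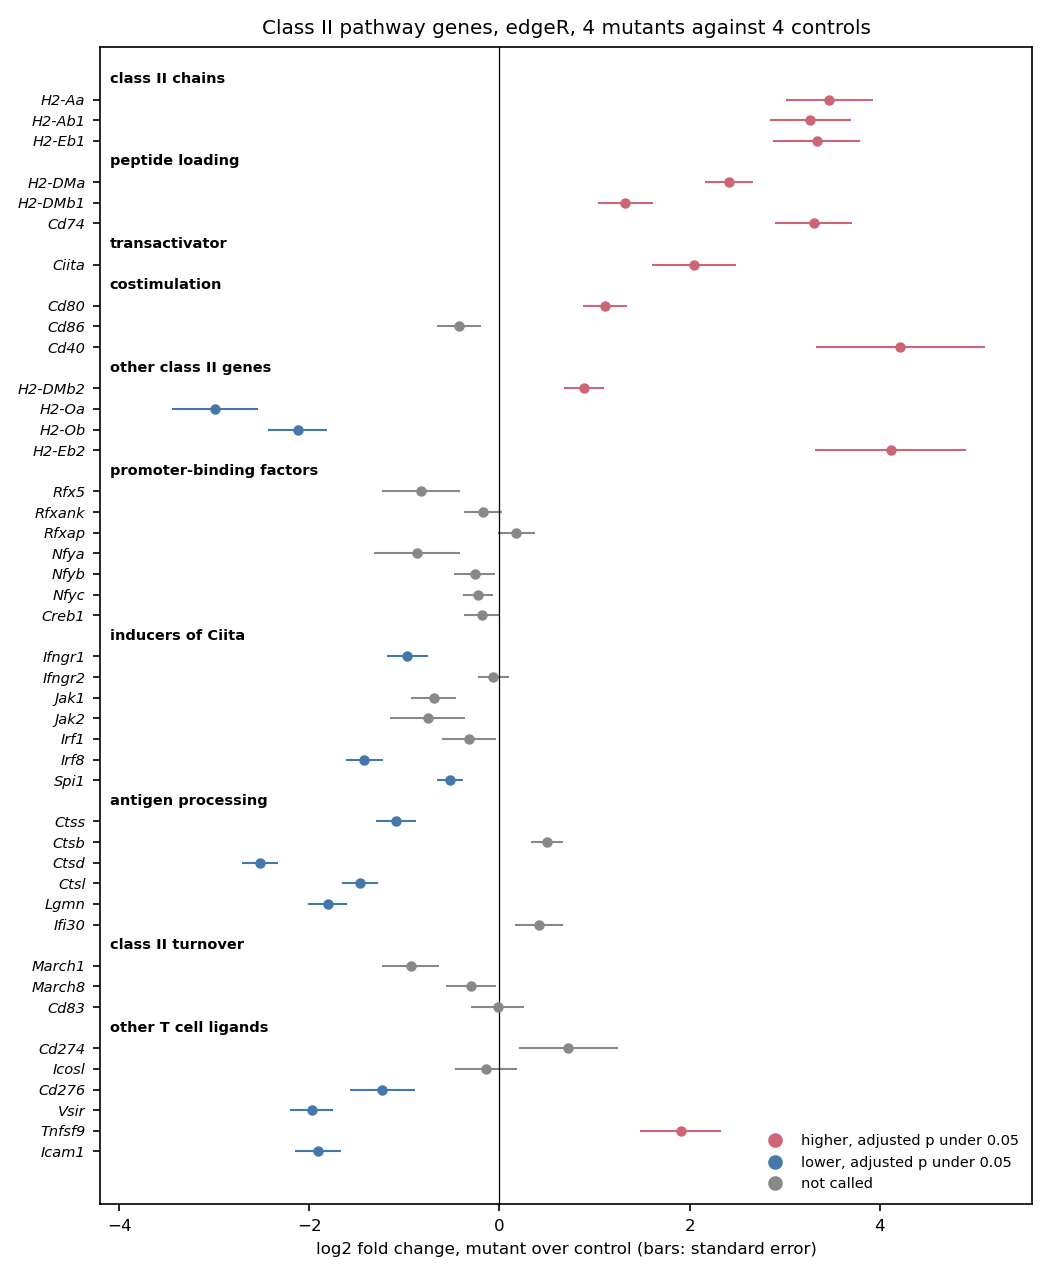
log2 fold change, mutant over control, of the 10 genes and 33 of the 34 tested pathway genes, with standard errors as bars, from edgeR with 4 libraries a group. Red marks genes called higher, blue genes called lower and grey genes with no call, and the 10 genes at the top lie to the right of 0 except *Cd86*, while most called pathway genes lie to the left.

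The other class II genes of the same stretch of chromosome 17 went both ways. RNA of the genes of the DO heterodimer, which holds DM in check, was lower in the mutants. *H2-Oa* (ENSMUSG00000024334, chr17:34092340-34095234) measured 29.6, 39.7, 52.2 and 77.4 CPM in controls 1 to 4 and 2.54, 6.28, 10.4 and 5.79 CPM in mutants 1 to 4, and fell by 2.99 on the log2 scale (SE 0.45, edgeR adjusted p = 0.00317). *H2-Ob* (ENSMUSG00000041538, chr17:34238903-34254414) measured 16.7, 26.3, 36.0 and 29.4 CPM in controls 1 to 4 and 6.56, 7.83, 6.68 and 3.81 CPM in mutants 1 to 4, and fell by 2.12 on the log2 scale (SE 0.31, edgeR adjusted p = 0.00254). Neither gene's groups overlapped. *H2-Oa* exons overlap those of *BC051537* on the other strand by 321 bases. The summed level of *H2-DMa* and *H2-DMb1* per summed level of *H2-Oa* and *H2-Ob*, per length, was 2.18 to 4.34 in controls and 36.0 to 117 in mutants.

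*H2-DMb2*, another DM beta chain gene (chr17:34143307-34151555), had 10.5 to 15.97 CPM in controls and 20.5 to 29.2 CPM in mutants, a rise (log2 fold change 0.89, SE 0.21, edgeR adjusted p = 0.0262). Its call was lost in 4 of the 8 fits that left out 1 mouse, and 25.9% of the 50-base words of its transcripts occur elsewhere, mainly in *H2-DMb1*. *H2-Eb2* (chr17:34325665-34341412), another class II beta chain gene, had 3 to 9 counts in controls and 28 to 187 counts in mutants (log2 fold change 4.11, SE 0.79, edgeR adjusted p = 0.0103). It passed the filter on low counts only through the mutants, so it had to differ once tested, and its call is a description. From one end of the stretch to the other, *H2-Oa* fell, *H2-DMa*, *H2-DMb2* and *H2-DMb1* rose, *H2-Ob* fell, and *H2-Ab1*, *H2-Aa*, *H2-Eb1* and *H2-Eb2* rose.

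Class II promoters are known for an upstream module of spaced boxes, among them an X box bound by the RFX complex and a Y box bound by NF-Y, on which CIITA is assembled. Promoters from RefSeq (GRCm38.p6, 250 bases before to 50 bases after the annotated start) were available for 5 of the 10 genes and for 4 of the 5 other class II genes. They were searched on both strands for GATTGG, the core of a Y box on the gene's strand, and for the X-type motif CNNNNAAC followed 28 to 38 bases later, first base to first base, by GATTGG. The motifs and their spacing were chosen after these promoters had been read, so the matches are a description. GATTGG occurred in 16.1% of 32851 promoters and the spaced pair in 0.527%. The pair was present in 7 of the 9 genes, *H2-Aa*, *H2-Eb1*, *H2-DMb1*, *H2-DMb2*, *H2-Oa*, *H2-Ob* and *H2-Eb2*, always on the gene's strand. The first pair of each promoter had a spacing of 32 to 35 bases, and *H2-Oa* held another, whose X-type motif overlaps that of the first and lies 31 bases before GATTGG. It was not found in *Cd80* or in either of the 2 *H2-DMa* promoters.

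The windows of the 7 promoters from position -140 to -21 are shown because they let genes that rose be set beside *H2-Oa* and *H2-Ob*, which fell. They read 5′ to 3′ on the gene's strand, and capitals mark the X-type motif of the first pair and GATTGG.
H2-Aa, chr17:34287844-34287963, minus strand: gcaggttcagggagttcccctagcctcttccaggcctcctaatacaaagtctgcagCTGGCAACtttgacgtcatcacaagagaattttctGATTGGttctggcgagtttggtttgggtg
H2-Eb1, chr17:34305727-34305846, plus strand: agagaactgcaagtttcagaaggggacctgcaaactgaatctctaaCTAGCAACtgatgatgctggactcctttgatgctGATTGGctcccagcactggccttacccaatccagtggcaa
H2-DMb1, chr17:34153051-34153170, plus strand: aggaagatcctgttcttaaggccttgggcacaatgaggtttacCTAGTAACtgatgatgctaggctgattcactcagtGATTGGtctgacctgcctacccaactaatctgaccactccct
H2-DMb2, chr17:34145109-34145228, plus strand: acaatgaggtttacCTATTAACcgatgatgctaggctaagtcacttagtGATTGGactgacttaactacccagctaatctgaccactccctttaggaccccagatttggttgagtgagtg
H2-Oa, chr17:34092239-34092358, plus strand: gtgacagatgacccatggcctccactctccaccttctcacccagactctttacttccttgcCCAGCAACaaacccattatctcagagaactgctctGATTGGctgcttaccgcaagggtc
H2-Ob, chr17:34238765-34238884, plus strand: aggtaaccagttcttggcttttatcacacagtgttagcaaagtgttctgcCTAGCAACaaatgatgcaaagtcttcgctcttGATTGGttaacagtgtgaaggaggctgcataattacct
H2-Eb2, chr17:34325535-34325654, plus strand: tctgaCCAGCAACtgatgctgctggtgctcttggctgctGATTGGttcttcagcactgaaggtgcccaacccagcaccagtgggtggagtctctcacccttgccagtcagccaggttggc

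The pair was thus present in 4 genes that rose, in *H2-Eb2*, and in both genes that fell. The Y-type motif began between position -101 in *H2-Eb2* and position -44 in *H2-Oa*. A match of letters is not evidence of binding in these cells.

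**Figure D4:**
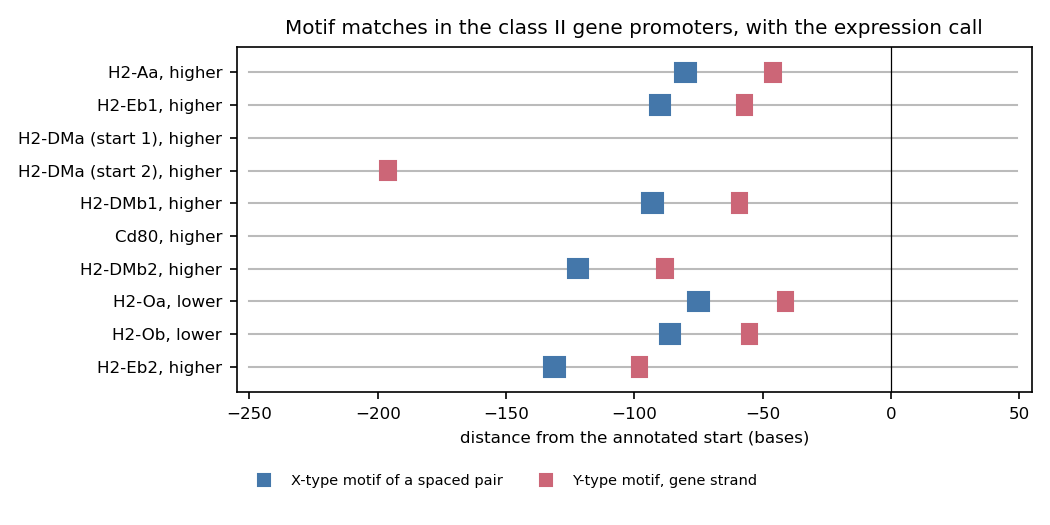
Position of the X-type motif of the first spaced pair (blue) and of GATTGG on the gene's strand (red) in the RefSeq promoters, in bases from the annotated start, with each gene's call. The 7 genes with the pair carry it at a similar spacing whether they were called higher or lower.

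No gene of the factors that bind these promoters was called. Of the 7 tested, namely *Rfx5*, *Rfxank* and *Rfxap* of the RFX complex, *Nfya*, *Nfyb* and *Nfyc* of NF-Y, and *Creb1*, 0 were called in either direction by edgeR or by DESeq2, and their log2 fold changes ran from -0.87 for *Nfya* to 0.18 for *Rfxap*. 0 of the 7 had an unadjusted p under 0.05, the lowest being 0.0749 for *Rfx5*.

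Of 8 genes of the interferon-γ route and the myeloid factors known to induce *Ciita*, 0 rose by edgeR or DESeq2, 1 was higher at an unadjusted p under 0.05, and 3 fell by edgeR. By DESeq2, and at an unadjusted p under 0.05, 4 were lower, the additional gene being *Jak1*, a kinase of the receptor (log2 fold change -0.69, unadjusted p = 0.0158, edgeR adjusted p = 0.0875). *Ifngr1*, the ligand-binding chain of the interferon-γ receptor, fell by 0.97 on the log2 scale, with 1055 to 1680 CPM in controls and 508 to 817 CPM in mutants (edgeR adjusted p = 0.0207), and its call was lost in 3 of the 8 fits that left out 1 mouse. *Irf8*, a myeloid transcription factor, fell by 1.42 on the log2 scale, with 402 to 638 CPM in controls and 156 to 227 CPM in mutants (edgeR adjusted p = 0.00184). *Spi1*, which encodes PU.1, fell by 0.52 on the log2 scale, with 432 to 565 CPM in controls and 334 to 371 CPM in mutants (edgeR adjusted p = 0.0376), but its call was lost in 7 of the 8 fits that left out 1 mouse.

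The proteases that degrade antigen and the invariant chain were lower or without a call, in contrast to *Cd74* itself. Of 6 processing genes, 0 rose and 4 fell by edgeR, whereas *Ctsb* was also higher by DESeq2 and at an unadjusted p under 0.05. *Ctss*, cathepsin S, which makes the last cuts in the invariant chain, lay between 4526 and 6659 CPM in controls, against 2116 to 3151 CPM in mutants, and fell by 1.09 on the log2 scale (SE 0.21, edgeR adjusted p = 0.0105). *Ctsd*, cathepsin D, lay between 7270 and 11640 CPM, against 1468 to 1736 CPM, and fell by 2.52 (SE 0.19, edgeR adjusted p = 9.43e-05). *Ctsl*, cathepsin L, fell by 1.47 on the log2 scale (edgeR adjusted p = 0.00141), and *Lgmn*, the asparaginyl endopeptidase that opens the invariant chain and many antigens, fell by 1.81 (edgeR adjusted p = 7.59e-04). *Ctsb* and *Ifi30*, the lysosomal thiol reductase, had no call, with log2 fold changes of 0.50 and 0.41.

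Of the 3 genes of class II turnover, 0 were called by edgeR and 1, *March1*, by DESeq2. *March1*, a ubiquitin ligase that removes class II and CD86 from the surface, lay between 59.4 and 96.6 CPM in controls, against 21.3 to 51.1 CPM in mutants without overlap (log2 fold change -0.94, unadjusted p = 0.0117, edgeR adjusted p = 0.0738), and it was the 1 gene of the 3 with an unadjusted p under 0.05. Of the other T cell ligands, 6 of 8 were tested, 1 rose and 3 fell. *Tnfsf9*, the ligand of 4-1BB, had 1.34 to 5.15 CPM in controls and 10.2 to 17.9 CPM in mutants, a rise (log2 fold change 1.91, edgeR adjusted p = 0.0193). Its call was lost without control 3 (edgeR adjusted p = 0.0508) and without both libraries numbered 1 (edgeR adjusted p = 0.0703). *Vsir*, which encodes the inhibitory ligand VISTA, fell by 1.98 on the log2 scale (edgeR adjusted p = 8.13e-04). *Icam1*, an adhesion molecule of the contact with T cells, fell by 1.91 (edgeR adjusted p = 0.00117), and *Cd276* fell by 1.23 (edgeR adjusted p = 0.0462), a call lost in 7 of the 8 fits that left out 1 mouse.

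Markers of other cells that a brain sort could hold were measured beside the class II genes. Of 6 markers of border macrophages, 5 rose by edgeR, and 6 were higher by DESeq2 and at an unadjusted p under 0.05. Their summed level was 29.5 to 42.5 CPM in controls and 1597 to 2482 CPM in mutants. The sum was lowest in mutant 1 and highest in mutant 4, as were *Pf4*, *Ms4a7* and *Cbr2*. *Mrc1* and *Lyve1* were lowest in mutant 2 and highest in mutant 3, as *H2-Aa* was. *Mrc1* measured 364, 243, 391 and 313 CPM in mutants 1 to 4. *Cd163* was highest in mutant 3 and lowest in mutant 4. *Ms4a7*, which encodes a membrane protein, rose by 6.98 on the log2 scale, *Pf4* by 6.48 and *Mrc1*, the mannose receptor, by 4.88. *Lyve1*, the marker without an edgeR call (log2 fold change 1.86, unadjusted p = 0.0227, edgeR adjusted p = 0.109), lay between 0.336 and 1.80 CPM in controls, against 1.34 to 6.68 CPM in mutants. The part of border macrophages in the rise of the class II genes was not tested.

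No marker of professional presenting cells was called higher in the mutants. Of 8 dendritic cell markers 7 were tested and 0 called by edgeR, while 2 were lower by DESeq2 and at an unadjusted p under 0.05, and their summed level was 53.5 to 70.8 CPM in controls and 33.6 to 51.6 CPM in mutants. *Clec9a*, the 1 marker not tested, had 0 counts in 6 of the 8 libraries. Of 5 B cell markers 0 were called by edgeR or DESeq2 and 0 had an unadjusted p under 0.05, with a summed level of 49.04 to 68.2 CPM in controls and 40.1 to 68.5 CPM in mutants. Of 4 monocyte markers 0 were called by edgeR or DESeq2 and 0 had an unadjusted p under 0.05, with a summed level of 118 to 276 CPM and 100.1 to 228 CPM. The part of these cells in the rise of the class II genes was not tested.

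T and NK cell markers were higher in the mutants, at a low level. Of 5 markers 4 rose, *Cd3e*, *Trac*, *Cd4* and *Nkg7*, and the summed level was 12.8 to 40.5 CPM in controls and 102 to 165 CPM in mutants. Most of the mutant sum came from *Cd4*, at 48.4 to 78.0 CPM, and *Nkg7*, at 23.2 to 74.8 CPM. *Cd3e* reached only 5.35 to 9.40 CPM in mutants. *Cd3d* was higher by DESeq2 but had no edgeR call (log2 fold change 1.30, edgeR adjusted p = 0.121). Among the mutants the summed level was lowest in mutant 4, at 102 CPM, and *H2-Aa* in mutant 2. *Cd40* and *Cd80* reached at most 21.7 and 23.1 CPM. The part of T and NK cells in the rise of these genes and of the class II genes was not tested. Of 7 neural and vascular markers tested, 0 were called by edgeR, and 1 was lower by DESeq2 and at an unadjusted p under 0.05. Without the library numbered 1 of each group, a choice made after seeing the data, 6 of the 10 genes were called higher rather than 9, and *H2-DMb1*, *Ciita* and *Cd40* kept their direction with edgeR adjusted p-values of 0.0701, 0.0733 and 0.0646.

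**Figure D5:**
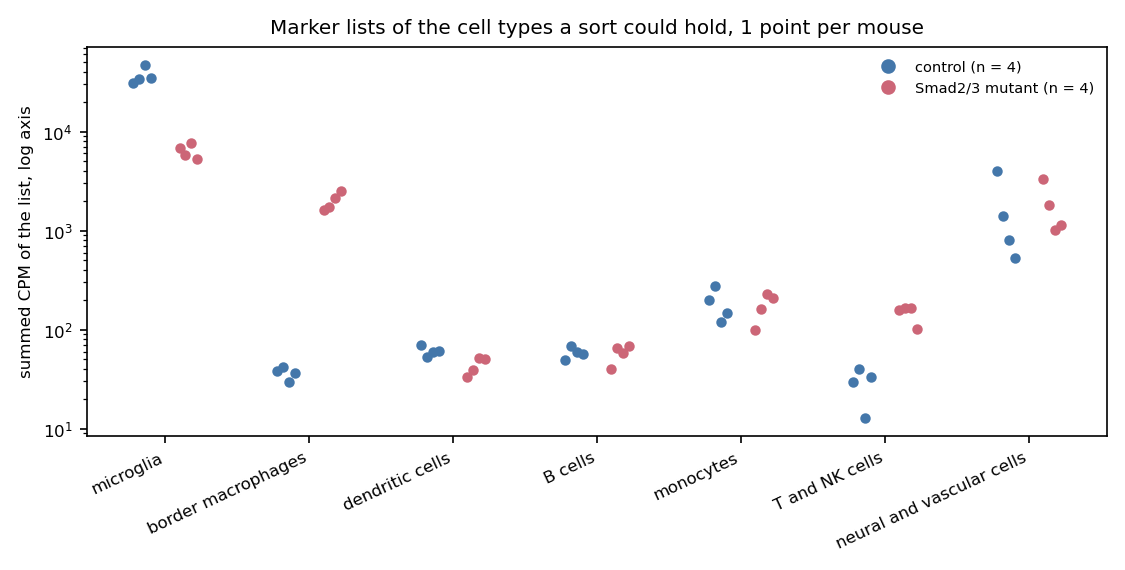
Summed CPM (log axis) of 7 marker lists in each control (blue) and mutant (red) library. Microglial markers are lower in every mutant, border macrophage and T and NK cell markers are higher in every mutant, and the B cell, monocyte, and neural and vascular lists overlap between the groups. The dendritic cell list is also lower in every mutant, by little, with at most 51.6 CPM against at least 53.5 CPM in controls.

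The genes outside these lists whose pattern over the 8 libraries was most like that of *H2-Aa* were looked for among the 10273 tested genes that averaged 3 log2 CPM or more. Likeness was the root mean square difference of the centred log2 CPM, for which 0 is an identical pattern. *H2-Eb1*, *Cd74* and *H2-Ab1* lay at 0.109, 0.115 and 0.127 from *H2-Aa*, closer than any gene outside the lists. The nearest of those were *Fam129a* at 0.477, *Usp18*, an interferon-induced protease, at 0.498, *Ms4a6c* at 0.506, *Cd44*, a receptor for hyaluronan, at 0.527, and *Antxr2* at 0.532. The nearest to *Cd74* were *Fam129a* at 0.430, *Ms4a6c* at 0.435, *Cd44* at 0.455, *Usp18* at 0.484 and *Man2a1*, a mannosidase of the Golgi, at 0.488. *H2-DMa* lay at 0.628 and *Ciita* at 0.757 from *H2-Aa*, farther than these genes. *H2-DMb1* lay at 1.07, *Cd80* at 1.30, *Cd40* at 1.70 and *Cd86* at 1.93. The measure also counts the size of a rise, and *Ciita* rose less than *H2-Aa*. Both genes were lowest in mutant 2 and highest in mutant 3 among the mutants.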

How the data were processed

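RNA of sorted microglia from 4 *Smad2/3 fl/fl;Cx3cr1 Cre* mutants and 4 controls was analysed. Per the Methods, Rsubread alignments to mm10 were summarised by featureCounts, and the authors deposited the raw counts per gene. FeatureCounts is a tool the submitters' processing notes name beside DESeq2 1.28. The aligner's version, the annotation and strand setting are not given in the sources used here. The labels name unstranded Nextera XT single-end libraries, the Methods unstranded NEBNext Ultra II polyA paired-end libraries. The Methods name another deposit for this genotype, but genotype and cell type match these libraries. The authors' table of fold changes and p-values was not used.

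Counts were tested with edgeR 4.0.16 in R 4.3.3 (TMM, glmQLFit, glmQLFTest, minimum of 10 counts in 4 or more libraries, Benjamini-Hochberg adjustment, adjusted p under 0.05). The script was first tested on simulated data. Standard errors are the log2 fold change divided by the square root of its F statistic. At these depths precision depended mostly on the variation between mice (biological coefficient of variation 0.542). Lengths and positions are those of GENCODE M21 on GRCm38, which matched 55480 genes. Alternatives were DESeq2 1.42.0, RLE factors, library totals, no filter, a filter in all libraries, a block for the replicate number, each mouse left out, and, chosen after seeing the data, both libraries numbered 1 left out. The genes named are the 10 genes, every called gene of the pathway lists and any gene there with at most 3 counts in every library, marker genes where a result turns on them, the genes most like *H2-Aa* and *Cd74*, and *Smad2*, *Smad3* and *Xist*. *Rfx5*, *Rfxap*, *Nfya*, *Jak1*, *Ctsb*, *Ifi30*, *March1* and *Ddx3y* fall outside this rule and were chosen after their values were seen. Of the pathway genes, 1 enters the list counts and is neither named nor plotted. The genes and lists were chosen with earlier results of these data known. Replicates were separate mice according to the Methods.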

Additional observations from a re-analysis of the deposited data

Results flagged for a closer look

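Groups of 4 libraries were examined for a library far from the others by Dixon's criterion, over the 10 genes and the called pathway genes, 50 groups in all, of which 2 met it. Chance alone gives about 1 in 20. In control 1, *H2-DMb1* was at 132.9 CPM, far below the other controls, which lay between 163 and 169 CPM. In mutant 4, *H2-DMb2* was at 29.2 CPM, far above the other mutants, which lay between 20.5 and 21.3 CPM, and without that library *H2-DMb2* had no call (log2 fold change 0.76, edgeR adjusted p = 0.0638).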

How the results depend on the processing

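*H2-Aa*, *H2-Ab1*, *H2-Eb1*, *H2-DMa*, *Cd74* and *Cd80* were called higher, and *Cd86* had no call, under all 15 alternatives, and no gene examined changed direction. *Cd80* came closest to losing its call, with an adjusted p of 0.05 without control 2. The 9 calls among the 10 genes became 8 under the replicate block, where *Ciita* had an adjusted p of 0.0656, 8 without control 2, and 8 of 9 tested when 10 counts were required in all libraries, which removed *Cd40*. They were 8 to 9 with 1 mouse left out, and 6 without both libraries numbered 1. Of the 34 pathway genes, the 3 higher calls became 1 under the replicate block and 1 without both libraries numbered 1, and 1 to 3 with 1 mouse left out, while the 12 lower calls became 14 under the replicate block and by DESeq2, 13 with the filter in all libraries, 10 without both libraries numbered 1, and 9 to 11 with 1 mouse left out. Over all genes, DESeq2 gave 2079 higher and 2659 lower calls against 878 and 1607, and leaving out 1 mouse gave 525 to 1024 and 1005 to 1587. The lowest counts came without control 2 (525 higher) and control 3 (1005 lower), and without mutant 2 the higher calls were 573. Scaling by library totals moved the median of all genes by 0.12 on the log2 scale, and 44.1% of calls were then higher, against 35.3%, 43.9% by DESeq2 and 44% without control 4. Among the pathway genes, the calls of *Spi1* and *Cd276* were each lost under 10 of 15 alternatives, *H2-DMb2* under 6, and *Ifngr1* and *Tnfsf9* under 3 each. The cause of these losses was not tested, although fits with fewer libraries have fewer degrees of freedom.

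The replicate numbers were not taken to pair the mice, since the labels name no shared litter or day and not every same-numbered pair had a correlation of its deviations over 0.1. The values were 0.166, 0.0183, 0.144 and 0.114, and mutants 1, 3 and 4, but not mutant 2, correlated best with the control of their own number, which is a hint from the data only. The replicate block gave 886 higher and 1497 lower calls over all genes. Counts in controls were few for *Cd40* and *H2-Eb2*, with at most 60 and 9 in a control.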
